A study of Mus musculus with 9 samples.

Results

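Cholesterol is built from acetyl-CoA by a chain of enzymes in the cytosol and the endoplasmic reticulum, and 7 of these enzymes were followed in mouse heart: Hmgcs1, Idi1, Fdft1, Sqle, Lss, Cyp51 and Dhcr7. They were chosen by symbol, as every non-control array probe whose accession belongs to one of the 7 genes. This gave 14 of 41174 probes and 7 of the 27773 genes that could be tested. That total, called all genes below, takes in array identifiers without a gene symbol. The study compared 5 wild-type (WT) mice with 4 RORasg/sg mice. The latter carry the staggerer allele on both chromosomes, a germline deletion in Rora, which encodes the nuclear receptor RORalpha. All were males labelled C57BL/6, 3 to 4 months old, weaned at 3 weeks onto NIH31 diet and left without treatment. The deletion is present in every tissue of the animal, so it is not confined to the heart. Each heart was 1 mouse and 1 single-colour Agilent array of total RNA.

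Hmgcs1 makes HMG-CoA from acetyl-CoA and acetoacetyl-CoA near the head of the pathway. Idi1 isomerises the isoprene unit from which longer chains grow. Fdft1, squalene synthase, commits farnesyl diphosphate to sterols, Sqle adds the oxygen to squalene, and Lss folds the product into lanosterol, the first sterol. Cyp51 removes a methyl group from lanosterol, and Dhcr7 carries out the last reduction to cholesterol. In most cells these genes are controlled together: when membrane sterol is low, SCAP escorts the SREBP factors to the Golgi, proteases release their active part, and this part binds sterol response elements beside sites for NF-Y and Sp1. RORalpha binds as a monomer to a single AGGTCA core behind an AT-rich stretch, and cholesterol derivatives can occupy its ligand pocket.

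Promoter sequences were available for 5 of the 7 enzymes (RefSeq, GRCm38.p6, 250 bases before to 50 after a start site), and those of Hmgcs1 and Idi1 are shown because both genes belong to the early pathway and only the former holds the sterol element core. The 250 bases before the Hmgcs1 start lie at chr13:119690101-119690350 and those before the Idi1 start at chr13:8885356-8885605, both on the plus strand. Capitals mark the sterol response element core and the inverted CCAAT box of NF-Y.
Hmgcs1: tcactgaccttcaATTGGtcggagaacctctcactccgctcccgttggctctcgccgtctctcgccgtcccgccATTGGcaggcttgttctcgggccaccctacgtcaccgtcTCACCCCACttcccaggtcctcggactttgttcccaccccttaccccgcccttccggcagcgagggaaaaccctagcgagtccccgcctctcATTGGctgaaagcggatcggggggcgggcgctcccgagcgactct
Idi1: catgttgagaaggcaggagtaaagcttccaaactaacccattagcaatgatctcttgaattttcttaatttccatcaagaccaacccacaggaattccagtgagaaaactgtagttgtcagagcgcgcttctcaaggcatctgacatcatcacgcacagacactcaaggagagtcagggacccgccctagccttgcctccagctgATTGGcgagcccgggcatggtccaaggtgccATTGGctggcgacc
The sterol response element core was searched as TCACNCCAC, the inverted CCAAT box as ATTGG, the GC box of Sp1 as GGGCGG and the ROR site as NNNAGGTCA, each on both strands. The 5 enzymes have 7 promoters in the table, since Dhcr7 has several. The sterol core was found in 1 of the 7, that of Hmgcs1, where it starts at position -137 from the start site, and in 1.24% of all 32851 promoters. An inverted CCAAT box was found in 5 of the 7 and in 37.4% of all promoters. GC boxes were found in 6 of the 7, against 35.7% of all promoters. The ROR site as searched was found in 4 of the 7, of Hmgcs1 and Dhcr7, and in 16.1% of all promoters. Its leading letters were left free, so any AGGTCA counted and no AT-rich stretch was required. The GATAGGTCA matches at -3 and -235 in Dhcr7 promoters are the same site, counted in each, since these promoters overlap. Matches of different motifs overlapped 0 times in the enzymes. A match is a stretch of letters, and binding was not measured.

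Signal is given as log2 of the processed spot intensity around the 75th percentile of its array, so 0 is the level of a probe at that percentile and a step of 1 is a factor of 2. The 75th percentile lay between 436 and 681 in WT hearts and at 774, 293, 390 and 263 in RORasg/sg hearts 1 to 4. Arrays at 500 or above are called brighter (4 WT hearts and RORasg/sg heart 1) and the others dimmer (WT heart 4 and RORasg/sg hearts 2, 3 and 4), so brightness and genotype largely ran together. Over all genes tested, the median log2 difference, RORasg/sg minus WT, was 0.40. It was 0.30 after quantile normalization and -0.17 without scaling, and each difference below is to be read against it. With 2 of the 3 Rora probes, every RORasg/sg heart was below every WT heart (-4.13 for A_51_P477779 and -5.34 for A_52_P652442). Even these did not pass the test used below over all 36402 probes (limma adjusted p 0.296 for each). A probe or gene that does not pass may therefore still differ. With the 2 separating Rora probes, RORasg/sg heart 1 was the highest of its group, at 0.081 and 0.25. The next, RORasg/sg heart 3, read -1.01 and -2.19, and the lowest WT heart, heart 4, read 1.51 and 1.56. With the third Rora probe, A_52_P652950 (-1.08), the groups overlapped, and it was above background on only 2 of the 4 RORasg/sg arrays. The label of heart was checked on 6 cardiomyocyte markers, which summed to between 540 and 645 times the 75th percentile signal in WT hearts and between 198 and 634 times in RORasg/sg hearts.

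On the scaled values, Hmgcs1, at the head of the pathway, and Fdft1, at its commitment to sterols, separated the groups. Each RORasg/sg heart read lower than any of the WT hearts, by 1.41-fold and 3.30-fold in the mean. Without scaling the groups overlapped for both genes, since RORasg/sg heart 1 lay inside the WT range. Idi1, Sqle, Lss, Cyp51 and Dhcr7 overlapped between the groups. None of the 7 passed the test between RORasg/sg and WT hearts (limma with Benjamini-Hochberg adjustment over all genes, threshold 0.05), and the smallest adjusted p among them was 0.420. Of all genes, 1 passed, or 0.00360%. With unadjusted p under 0.05, Fdft1 was the only enzyme, with a lower mean, where 11.5% of all genes had such a p in either direction. The 2 enzymes whose RORasg/sg hearts all lay below the WT hearts compare with 1.71% of all genes. The reverse, all RORasg/sg hearts above all WT hearts, held for 0 enzymes and for 1.10% of all genes. Means were higher in RORasg/sg for 4 enzymes (Idi1, Sqle, Lss and Cyp51) and lower for 3 (Hmgcs1, Fdft1 and Dhcr7). That split was 3 higher and 4 lower after quantile normalization and 2 higher and 5 lower without scaling. The median difference of the enzymes was 0.18, which is 0.22 below the median of all genes (0.31 below after quantile normalization, 0.22 below without scaling). Only Sqle and Cyp51 lay above the median of all genes.

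**Figure D1:**
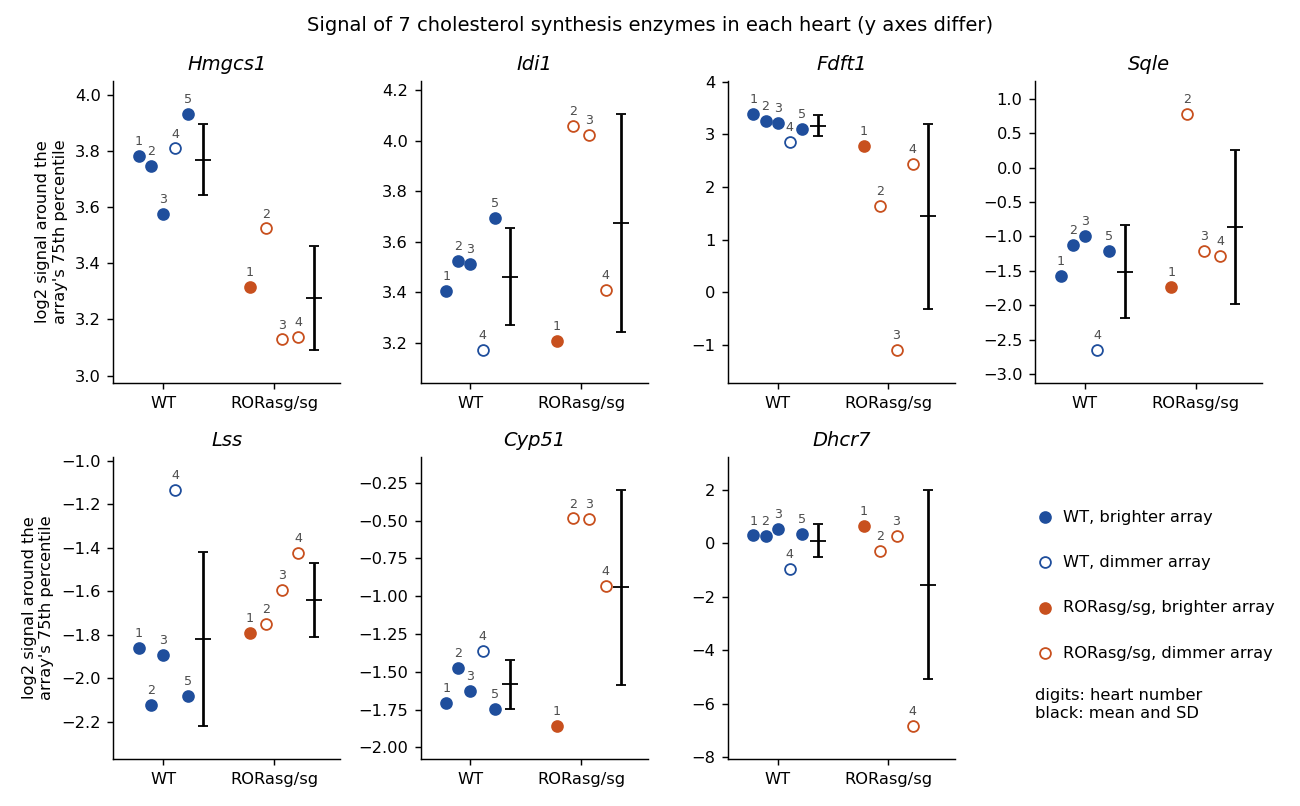
Log2 signal around the 75th percentile of the array (y axis, a separate scale for each gene) of the 7 enzymes in 5 WT and 4 RORasg/sg hearts. Each point is 1 heart with its number, filled for brighter and open for dimmer arrays, and black bars give mean and SD. On this scale the 2 groups do not overlap for Hmgcs1 and Fdft1 and overlap for the other 5 genes. RORasg/sg heart 3 stands low for Fdft1 and RORasg/sg heart 4 for Dhcr7.

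Hmgcs1 (probe A_51_P146941, NM_145942), the enzyme at the entry of the pathway, was lower in RORasg/sg hearts by a small margin. WT hearts 1 to 5 read 3.78, 3.75, 3.58, 3.81 and 3.93, and RORasg/sg hearts 1 to 4 read 3.32, 3.52, 3.13 and 3.14. Every RORasg/sg heart was below every WT heart, with the highest RORasg/sg value, that of heart 2, just under the lowest WT value, that of heart 3. In signal units without scaling the groups overlapped, with 6117 to 9367 in WT and 2318 to 7709 in RORasg/sg. Means were 3.77 ± 0.128 (SD, n = 5) in WT and 3.28 ± 0.186 (SD, n = 4) in RORasg/sg. The difference of -0.49 (SE 0.311) is a 1.41-fold lower mean, and its limma p was 0.138, or 0.425 after adjustment over all genes. It exceeds the SD of either group, while the SE, which limma moderates with the spread of other genes, is larger than both SDs. Of all genes, 21.0% had a smaller (more negative) difference.

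Idi1 (A_51_P329711, NM_145360), which supplies the activated isoprene unit, did not separate the groups. WT hearts 1 to 5 read 3.40, 3.52, 3.51, 3.17 and 3.69, and RORasg/sg hearts 1 to 4 read 3.21, 4.06, 4.02 and 3.41. RORasg/sg hearts 2 and 3 were above every WT heart, and RORasg/sg hearts 1 and 4 were inside the WT range. The means were 3.46 ± 0.192 (SD, n = 5) and 3.67 ± 0.432 (SD, n = 4), a difference of 0.21 (SE 0.341, limma p 0.543, adjusted p 0.701) that is smaller than the SD in RORasg/sg and that turned to -0.0040 after quantile normalization and -0.36 without scaling. It was 0.086 without RORasg/sg heart 2 and 0.097 without RORasg/sg heart 3.

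Fdft1 (A_51_P485946, NM_010191), the branch point from farnesyl diphosphate to squalene, had the lowest difference of the 7. WT hearts 1 to 5 read 3.39, 3.26, 3.22, 2.85 and 3.10, while RORasg/sg hearts 1 to 4 read 2.78, 1.64, -1.10 and 2.44. All 4 RORasg/sg hearts were below all 5 WT hearts, RORasg/sg heart 1 by little and RORasg/sg heart 3 by far. In signal units without scaling the ranges were 3147 to 7115 in WT and 181 to 5332 in RORasg/sg, which overlap through RORasg/sg heart 1. The difference was -1.72 (SE 0.684), a 3.30-fold lower mean, with limma p 0.0269 and adjusted p 0.420. Means were 3.16 ± 0.202 (SD, n = 5) in WT and 1.44 ± 1.76 (SD, n = 4) in RORasg/sg, so the difference about equals the spread among RORasg/sg hearts. Without RORasg/sg heart 3 the difference was -0.87. Without RORasg/sg heart 1, the single RORasg/sg heart on a brighter array, it was -2.17 and passed the test (adjusted p 0.0365), in a fit in which 10399 genes, or 37.4% of all, passed.

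Sqle (A_51_P450487, NM_009270), the squalene epoxidase, was represented by this 1 probe. It read -1.58, -1.13, -0.99, -2.65 and -1.22 in WT hearts 1 to 5, with WT heart 4 the lowest of all 9. RORasg/sg hearts 1 to 4 read -1.73, 0.78, -1.21 and -1.28. RORasg/sg heart 2 was the highest of all 9 and the other 3 lay inside the WT range. Means of -1.51 ± 0.672 (SD, n = 5) and -0.86 ± 1.12 (SD, n = 4) gave a difference of 0.65 (SE 0.582, limma p 0.287, adjusted p 0.509), within the spread of both groups. It was 0.10 without RORasg/sg heart 2, 0.36 without WT heart 4 and 0.078 without scaling.

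Lss (A_52_P168028, NM_146006), which closes the sterol rings, had the smallest difference on this scale. WT hearts 1 to 5 read -1.86, -2.12, -1.89, -1.13 and -2.08, and RORasg/sg hearts 1 to 4 read -1.79, -1.75, -1.59 and -1.42. All RORasg/sg hearts were above 4 of the WT hearts and below WT heart 4, which was the highest of all 9. The difference was 0.18 (SE 0.392, limma p 0.655, adjusted p 0.782) between means of -1.82 ± 0.400 (SD, n = 5) and -1.64 ± 0.169 (SD, n = 4), and it was -0.39 without scaling. Without WT heart 4 it was 0.35, and without WT heart 2 it was 0.10.

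Cyp51 (A_52_P164161, NM_020010), the lanosterol demethylase, read -1.71, -1.47, -1.63, -1.36 and -1.75 in WT hearts 1 to 5. In RORasg/sg hearts 1 to 4 it read -1.86, -0.49, -0.49 and -0.93. RORasg/sg hearts 2, 3 and 4 were above every WT heart, and RORasg/sg heart 1 was below every WT heart. Means of -1.58 ± 0.163 (SD, n = 5) and -0.94 ± 0.646 (SD, n = 4) differed by 0.64 (SE 0.426), a 1.56-fold higher mean with limma p 0.157 and adjusted p 0.429. The difference was 0.071 without scaling and 0.25 with array brightness as a covariate. Without RORasg/sg heart 1 it was 0.95 and passed the test (adjusted p 0.0313), in the same fit in which 37.4% of all genes passed.

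Dhcr7 (A_51_P290986, NM_007856), the last enzyme, was at 0.30, 0.30, 0.54, -0.96 and 0.36 in WT hearts 1 to 5. RORasg/sg hearts 1 to 4 were at 0.66, -0.26, 0.29 and -6.82. RORasg/sg heart 4 alone was not well above background, and RORasg/sg heart 1 was the highest of all 9. The mean was 0.11 ± 0.605 (SD, n = 5) in WT and -1.54 ± 3.55 (SD, n = 4) in RORasg/sg. The difference of -1.65 (SE 1.27, limma p 0.218, adjusted p 0.462) is far smaller than the SD in RORasg/sg, and without RORasg/sg heart 4 it was 0.12.

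Further probes existed for 6 of the enzymes, 7 probes in all, and they did not all follow the probe that stood for the gene. Of the 14 probes, 11 were well above background on all 9 arrays, 8 had a lower and 6 a higher mean in RORasg/sg, and 0 passed the test over all 36402 probes, of which 1, or 0.00275%, passed. Unadjusted p under 0.05 was reached by 3 of the 14, against 12.8% of all probes in either direction. They were the Fdft1 probe described above and the second probes of Hmgcs1 and Idi1. The latter pair were above background on all 5 WT arrays but on only 2 and 1 of the RORasg/sg arrays, and so were kept only through WT, which fixes their direction. The second Hmgcs1 probe (A_52_P388072) read -1.55, -0.63, -2.08, -1.57 and -1.67 in WT hearts. RORasg/sg hearts 1 to 4 were at -1.83, -6.95, -2.63 and -7.00. Hearts 2 and 4 of RORasg/sg were not well above background, and heart 1 lay inside the WT range. The fitted differences were -3.10 (SE 1.02, limma p 0.0106, adjusted p 0.328) for this probe and -1.48 (SE 0.630, limma p 0.0369, adjusted p 0.384) for the second Idi1 probe (A_52_P441634). Both include readings near background and give no measured size.

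The 3 Cyp51 probes, each above background on all 9 arrays, disagreed in sign. Beside 0.64 for the probe described above, A_51_P485791 differed by -1.19 (SE 0.667, limma p 0.0996) and A_52_P636752 by -0.028 (SE 0.406). A_51_P485791 gave -1.38, -2.03, -1.03, -2.94 and -1.91 for WT hearts 1 to 5. For RORasg/sg hearts 1 to 4 it gave -0.89, -3.87, -3.58 and -3.87. RORasg/sg heart 1 was thus the highest of all 9 with this probe and the lowest of all 9 with A_52_P164161. For Dhcr7, A_52_P535946 was above background on all arrays and differed by 0.45 (SE 0.478), with RORasg/sg heart 4 at -1.54, inside the WT range of -3.24 to -1.21. The second Fdft1 probe (A_52_P136138) read -0.61, 0.11, -0.20, 0.65 and 0.63 in WT and -0.37, 0.89, -0.12 and -1.98 in RORasg/sg hearts, which overlap (-0.51, SE 0.587, limma p 0.400). Its reading in RORasg/sg heart 3 was inside the WT range, where the first Fdft1 probe was lowest. The Lss probes gave 0.18 and 0.16 (SE 0.442 for A_51_P296487) over all arrays, but had opposite signs in the brighter arrays (0.20 and -0.52) and in the dimmer (-0.46 and 0.48).

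**Figure D2:**
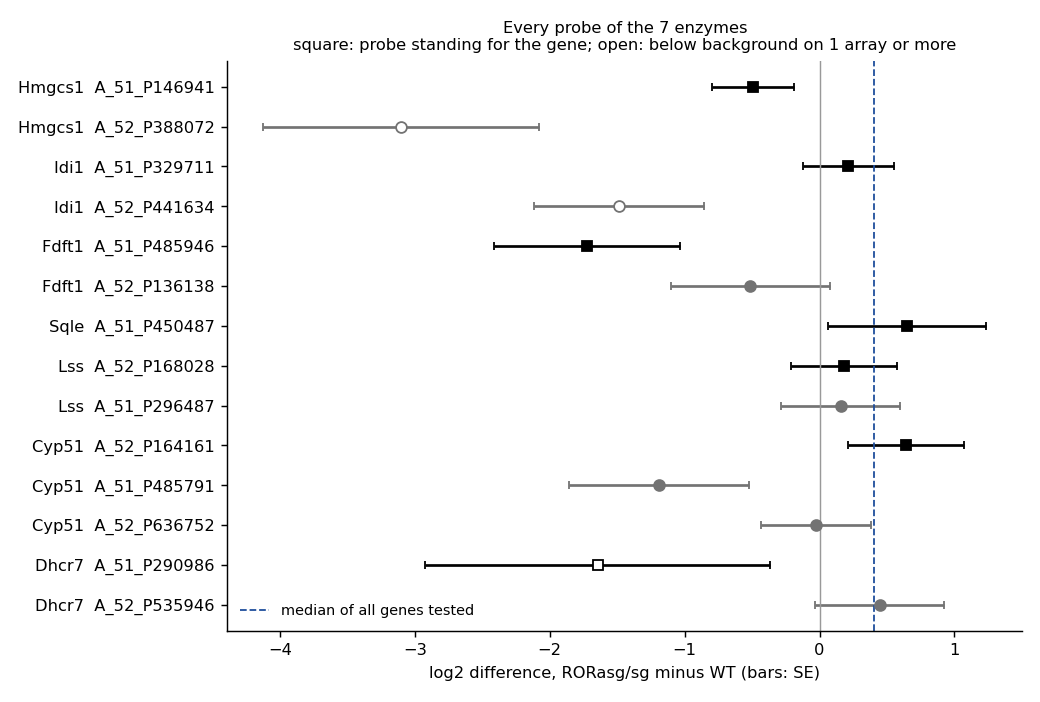
Log2 difference, RORasg/sg minus WT (x axis, bars are SE), of each of the 14 probes of the 7 enzymes (y axis). Squares stand for the gene, open symbols mark probes not well above background on 1 array or more, and the dashed line is the median of all genes, 0.40. Fdft1 and Lss keep 1 sign over their probes with this scaling (the Lss probe that stands for the gene is at -0.39 without scaling). Both Hmgcs1 probes lie below 0, and Idi1, Cyp51 and Dhcr7 have probes on both sides of 0. Readings near background lie behind the open symbols. The open probes of Hmgcs1 and Idi1 were kept only through WT, which fixes their direction.

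The enzymes were next compared within the 2 sets of arrays. Among the 5 brighter arrays, RORasg/sg heart 1 was lower than the mean of 4 WT hearts for Hmgcs1 (-0.44), Idi1 (-0.33), Fdft1 (-0.46), Sqle (-0.51) and Cyp51 (-0.22), and higher for Lss (0.20) and Dhcr7 (0.28). The median of the 7 was -0.33 and that of all genes -0.35. There is 1 RORasg/sg heart in this set, so these differences have no replicate in that group. Among the 4 dimmer arrays, 3 RORasg/sg hearts against WT heart 4 gave -0.55 for Hmgcs1, 0.66 for Idi1, -1.86 for Fdft1, 2.08 for Sqle, -0.46 for Lss, 0.72 for Cyp51 and -1.31 for Dhcr7, with a median of -0.46 against 0.50 for all genes. Hmgcs1 and Fdft1 were lower in both sets, and the other 5 enzymes changed sign from one set to the other. On slide 1 (WT hearts 1 and 2, RORasg/sg hearts 1 and 2) Hmgcs1 differed by -0.35 and Fdft1 by -1.11, and on slide 2 (hearts 3 and 4 of each group) by -0.56 and -2.37. The median of all genes was 0.053 on slide 1 and 0.68 on slide 2. Beside it, Cyp51 was at 0.42 and 0.78, Sqle at 0.87 and 0.57, Idi1 at 0.17 and 0.37, Lss at 0.22 and 0.0065, and Dhcr7 at -0.10 and -3.06. All 7 except Cyp51 were thus below the median of all genes on slide 2. The part of array brightness in these differences was not tested beyond these values and a fit with brightness as a covariate.

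**Figure D3:**
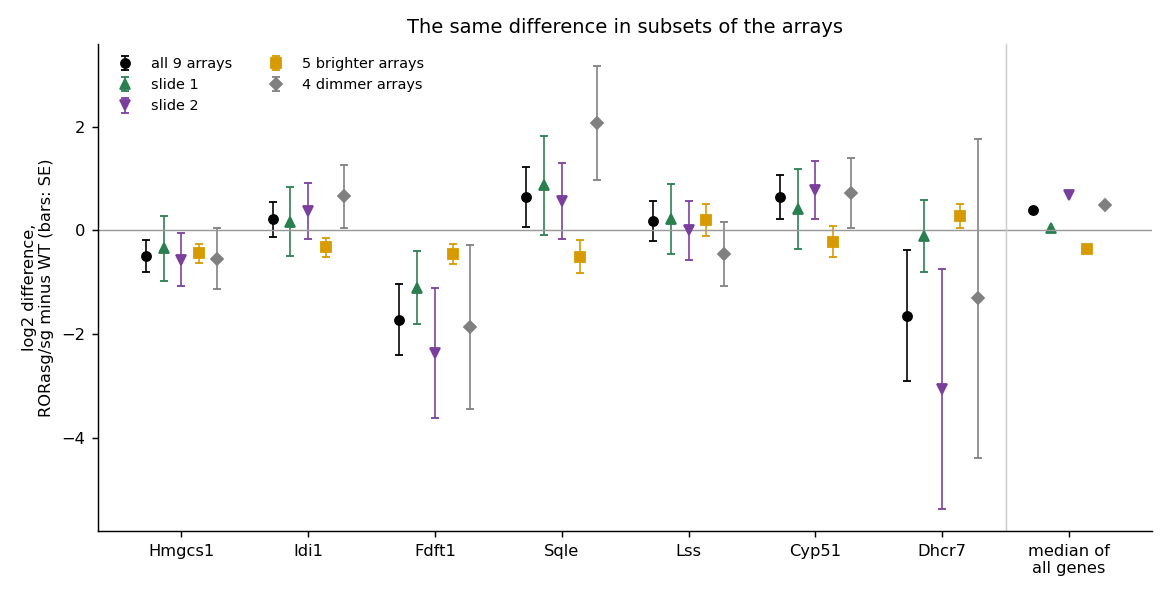
Log2 difference, RORasg/sg minus WT (y axis, bars are SE), of the 7 enzymes and the median of all genes (x axis) over all 9 arrays, within slide 1, within slide 2, in the 5 brighter arrays and among the 4 dimmer ones. Hmgcs1 and Fdft1 lie below 0 in every subset, while Idi1, Sqle, Lss, Cyp51 and Dhcr7 change side between brighter and dimmer arrays.

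The enzymes did not move as a block from heart to heart. Centred on the WT mean of each gene, 5 of the 7 were below 0 in RORasg/sg heart 1, 3 in heart 2, 2 in heart 3 and 4 in heart 4. RORasg/sg hearts 1 to 4 had median deviations over the enzymes of -0.25, 0.067, 0.23 and -0.053, where the median of all genes was -0.39, 0.55, 0.65 and 0.76. For WT hearts 1 to 5 these medians were -0.042, 0.093, 0.051, -0.29 and 0.16. The medians of all genes there were 0.065, -0.026, -0.13, 0.22 and -0.078. The enzymes thus sat below the general level of their array on all 4 dimmer arrays, that of WT heart 4 included, and slightly above it in RORasg/sg heart 1.

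Likeness between genes was measured as the root mean square difference of their WT-centred values over the 9 arrays, which share the same hearts and array brightness. Among the 21 pairs of enzymes, Idi1 and Cyp51 were the closest, at 0.403, followed by Idi1 and Lss at 0.474. Without RORasg/sg heart 4, where Dhcr7 was not above background, Idi1 and Cyp51 were again the closest, at 0.348, and the farthest were Fdft1 and Sqle, at 2.14, and Fdft1 and Cyp51, at 2.12. Against the mean of the other 6, Hmgcs1 differed by 0.345, Idi1 by 0.540, Lss by 0.737, Cyp51 by 0.945, Sqle by 1.04, Fdft1 by 1.68 and Dhcr7, with its reading in heart 4, by 2.37. The genes outside the group nearest to the mean profile of all 7 were NAP102909-1 (0.119, an array identifier without a symbol here), Copb1 (0.131), which encodes a coat protein of Golgi vesicles, Tspan3 (0.143), Kin (0.150) and AB010324 (0.154), with 1.07 as the median over all genes. The mean profile is low in RORasg/sg heart 4 (-1.01), where the Dhcr7 value of -6.93 from its WT mean enters it.

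The other 12 enzymes of the pathway were measured in full, and 0 passed the test. Of these, 7 had a higher and 5 a lower mean in RORasg/sg (4 and 8 after quantile normalization, 2 and 10 without scaling), 0 had an unadjusted p under 0.05, and their median of 0.16 was close to the 0.18 of the 7. The smallest unadjusted p were those of Nsdhl, a sterol dehydrogenase (1.42, SE 0.894, limma p 0.139, with -0.14 and 0.078 from its other probes), Mvk, mevalonate kinase (1.22, SE 0.796, p 0.151, with 1.23 and p 0.0256 from its other probe), and Tm7sf2, a sterol reductase (-0.53, SE 0.555, p 0.356). The Nsdhl probe at 0.078 was above background on 4 WT and only 2 RORasg/sg arrays.

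Genes that take farnesyl and geranylgeranyl diphosphate away from sterols, toward ubiquinone, dolichol and protein prenylation, had lower means over the 9 arrays in 6 of 6 measured, of 7 listed, under all scalings tried, with a median of -0.91. None passed the test, and 1 had an unadjusted p under 0.05. Fnta, the shared alpha subunit of the prenyltransferases, differed by -2.52 (SE 1.07, limma p 0.0354, adjusted p 0.420). Dhdds, of dolichol synthesis, differed by -1.15 (SE 0.531, p 0.0511), with all RORasg/sg hearts below all WT hearts and -0.23 from its other probe. Pggt1b, a subunit of an enzyme that attaches isoprenoids to proteins, differed by -1.87 (SE 0.995, p 0.0850, above background on 3 RORasg/sg arrays). In the brighter arrays the list median was -0.40, near the -0.35 of all genes, with Fnta at 0.50 and Pdss1 at 0.091. In the dimmer arrays it was -0.23, with Fntb at 1.29 and Pggt1b at 0.031, and the other Fntb probe differed by 1.14 over all arrays. That probe was above background on only 3 WT arrays and on 4 RORasg/sg arrays.

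Among 8 genes of sterol sensing, the upstream control of the 7 enzymes, 6 had a higher and 2 a lower mean (5 and 3 without scaling), 0 passed the test, 1 had an unadjusted p under 0.05 and the median was 0.63 (-0.52 over brighter arrays, 0.38 over dimmer ones). Srebf1, which encodes the SREBP-1 proteins, differed by -3.19 (SE 0.868, limma p 0.00315, adjusted p 0.375) and was above background on 3 of 4 RORasg/sg arrays. That difference, which includes a reading near background, was -3.68 in the dimmer arrays and -0.20 in the brighter. Srebf2, which encodes SREBP-2, the form tied most closely to cholesterol synthesis, differed by 0.76 (SE 0.406, limma p 0.0873). Its other probe gave -1.85 but was above background on 5 WT and only 2 RORasg/sg arrays. It was thus kept only through WT, which fixes its direction, and gives no measured size. Insig2, which retains SCAP in the endoplasmic reticulum, differed by 0.82 (SE 0.510, limma p 0.136), with 0.18 from its other probe. That 0.82 was -0.67 in the brighter arrays and 0.50 in the dimmer. Scap differed by -0.54, with all RORasg/sg hearts below all WT hearts.

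Of 8 genes of cholesterol storage, transport and efflux, 2 had a higher and 6 a lower mean under each of the scalings, with a median of -0.55 (0.12 over brighter arrays, 0.0045 over dimmer ones). None passed the test, and 2 had an unadjusted p under 0.05, Soat1 and Nr1h3. Soat1, which esterifies cholesterol for storage, had the highest difference (2.10, SE 0.623, limma p 0.00558, adjusted p 0.375), with 0.31 and 1.92 from its other probes. The probe at 0.31 was above background on only 2 RORasg/sg arrays, and that at 1.92 on 2 WT and 3 RORasg/sg arrays. Both therefore include readings near background. Nr1h3, the sterol-activated receptor LXR-alpha, differed by -1.53 (SE 0.532, p 0.0140, adjusted p 0.398), and Abcg1, a cholesterol exporter, by 0.84 (SE 0.436, p 0.0774). All lists were chosen with results of these arrays known, and their counts are descriptions.

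**Figure D4:**
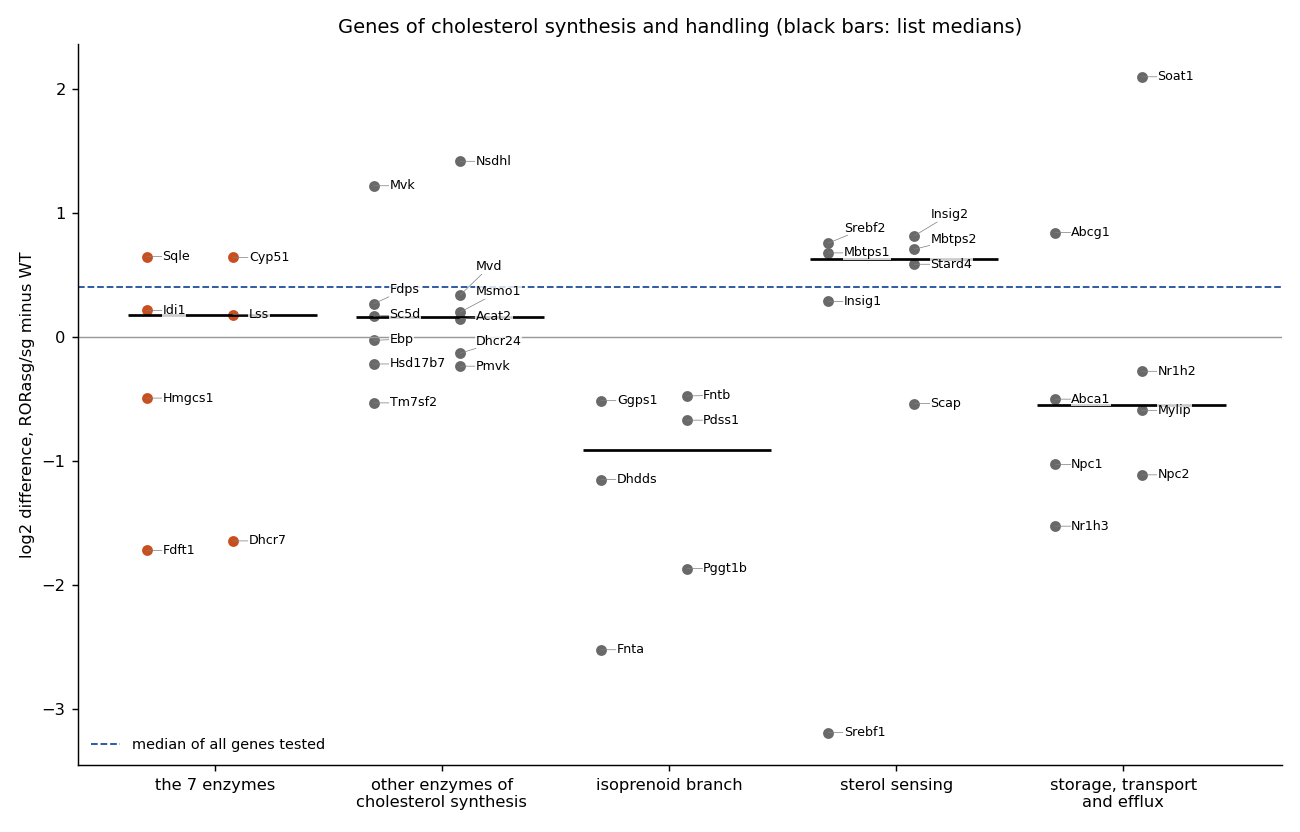
Log2 difference, RORasg/sg minus WT (y axis), of the 7 enzymes and of 4 further lists (x axis); each point is a gene, black bars are list medians and the dashed line is the median of all genes, 0.40. The medians of the 7 and of the other 12 synthesis enzymes are 0.18 and 0.16 (-0.39 and -0.42 without scaling), that of the isoprenoid branch is -0.91.

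Markers of other cells and of the muscle itself are given beside these values, since in whole-heart RNA fewer cells of a type and less RNA per cell cannot be told apart. Of the 8 marker lists 0 genes passed the test. Cardiomyocyte markers had lower means in 6 of 6 genes, 3 of them with unadjusted p under 0.05 (Myh6, Actc1 and Myl2), with a median of -1.15, which was -1.68 in the dimmer arrays and 0.0996 in the brighter. Such a p was also reached by 2 of 4 endothelial and 2 of 4 smooth muscle and pericyte markers, all with lower means. It was reached by 1 of 5 fibroblast markers, with a higher mean, by 0 macrophage markers, and by 11.5% of all genes in either direction. Endothelial markers were lower in 3 of 4, with a median of -1.39 (0.30 brighter, -1.76 dimmer) and summed levels of 12.7 to 29.4 in WT and 13.9 to 49.0 in RORasg/sg hearts, in multiples of the 75th percentile. Smooth muscle and pericyte markers were lower in 3 of 4 (4 of 4 after quantile normalization and without scaling), with a median of -1.25 (0.17 brighter, -1.54 dimmer) and sums of 47.5 to 86.2 and 16.0 to 60.6. Fibroblast markers were higher in 3 of 5 and lower in 2, from Col1a1 at 1.67 to Dcn at -0.66, with a median of 0.42 (-0.15 without scaling, -0.013 brighter, 0.21 dimmer) and sums of 35.5 to 74.5 and 38.7 to 119. Macrophage markers had a median of -0.24 (0.16 after normexp correction, 0.53 brighter, 0.24 dimmer) and sums of 5.71 to 12.5 and 7.03 to 16.5.

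Adipocyte, Schwann cell and hepatocyte markers stand for cells that make or store much lipid. Adipocyte sums were 0.529 to 1.32 in WT and 0.455 to 1.70 in RORasg/sg hearts, and hepatocyte sums, over 3 of 4 markers, 0.200 to 3.21 and 0.117 to 0.455. Schwann cell sums were 2.08 to 3.53 and 1.49 to 14.6, with 3 of 4 means higher (2 of 4 without scaling), among them Sox10 (2.59), which had an unadjusted p under 0.05. The 1 Schwann cell marker with a lower mean also had such a p. The summed level of the 7 enzymes was 31.8 to 39.0 in WT and 26.2 to 34.9 in RORasg/sg hearts. The part of cell makeup in the values of the 7 enzymes was not tested.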

How the data were processed

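Heart total RNA of 5 WT and 4 RORasg/sg mice was amplified from 70 ng and labelled with Cy3, per the labels' protocols. Per the file headers, arrays of design 014868 were read with Feature Extraction 12.0.0.7 (protocol GE1_1200_Jun14). Agilent Feature Extraction 12 is also the tool in the submitters' processing notes. The deposited intensity is each spot's processed signal: linear, with background subtracted and no scaling between arrays. A value table, also deposited, held the same intensity (largest relative difference 0 on each array), so its scale and direction are known and it was not centred. The medians of its columns were 139, 118, 110, 80.2 and 90.7 (WT hearts in order) and 126, 55.4, 81.1 and 55.2 (RORasg/sg hearts).

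Control spots and 758 outlier spots were left out, and 0 spots were saturated. Spots of a probe were averaged, log2 values were centred on each array's 75th percentile, and 36402 probes were kept that stood well above background on 4 or more of 9 arrays. A gene was its kept probe with the highest mean. Accessions named 28215 probes (19092 symbols, RefSeq table of GRCm38.p6). Other probes went by their array identifier, and each such identifier with a kept probe was counted as a gene. Per array, 80.7% to 87.7% of probes stood well above background, and precision is limited by the number of arrays. The test was two-sided, with limma 3.58.1 in R 4.3.3 (lmFit, then eBayes with trend) and Benjamini-Hochberg adjustment. Python 3.11.15 with matplotlib 3.10.9 drew the figures. The pipeline was tested on simulated data.

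The text names every probe of the 7 enzymes and Rora, the 3 genes of each other pathway list with the smallest unadjusted p, and the 5 genes nearest to the mean profile. Scap, Pdss1, Fntb and the single marker genes were named after their values were seen, and 1 marker's own values are not reported here. The members, lists and alternatives were chosen with earlier results of these data known. The alternatives were other scalings, normexp (offset 50, on median spot signals), filters, rules for choosing a probe, blocks for slide or replicate number, array weights, a brightness covariate, subsets of arrays, and leaving out each array.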

Additional observations from a re-analysis of the deposited data

Results flagged for a closer look

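Among 28 groups of probe readings (14 probes in 2 genotypes), 4 held a heart far from the others, judged by its gap to the nearest heart over the whole range of the group. About 1 in 20 groups is marked this way by chance. WT heart 4, on a dimmer array, was the outlying WT heart for 2 probes. For Lss (A_52_P168028) it read -1.13, with the nearest WT heart at -1.86, a gap of 0.735 of the range (critical value 0.71). For Dhcr7 (A_51_P290986) it read -0.96, with the nearest WT heart at 0.30, a gap of 0.838. The same Dhcr7 probe set RORasg/sg heart 4 apart, at -6.82 against -0.26 for the nearest heart of its group, a gap of 0.877 (above the critical value for 4 hearts). With Cyp51 probe A_51_P485791 it was RORasg/sg heart 1 that stood apart, at -0.89 against -3.58, a gap of 0.904.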

How the results depend on the processing

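Hmgcs1 and Fdft1 kept a lower mean in RORasg/sg under all 29 alternatives, from -1.80 to -0.35 and from -3.14 to -0.46. The mean of probes gave the -1.80 of Hmgcs1 and -0.64 for Idi1. It takes in their second probes, which were kept only through WT and give no measured size, and both values enter the median under that alternative. Among single enzymes a call was gained with array weights for Hmgcs1 (-0.57, limma adjusted p 0.0402), Fdft1 (-3.14, 0.00151) and Cyp51 (0.98, 0.0146). In that fit 15138 of all 27773 genes passed. Without RORasg/sg replicate 1 a call was gained for Fdft1 (-2.17, 0.0365) and Cyp51 (0.95, 0.0313), in a fit in which 37.4% of all genes passed. Over all alternatives adjusted p ranged from the array-weight values to near 1 for Hmgcs1, Fdft1 and Cyp51. The direction turned for Idi1 after quantile normalization (-0.0040), without scaling (-0.36), with the mean of probes (-0.64) and in the brighter arrays (-0.33). It turned for Lss without scaling (-0.39), with a brightness covariate (-0.0022) and within the dimmer arrays (-0.46), and for Sqle in the brighter arrays (-0.51). Cyp51 turned with the mean of probes (-0.19) and in the brighter arrays (-0.22). Dhcr7 turned with probes above background on all 9 arrays, where another probe stands for it (0.45), with the covariate (0.054) and in the brighter arrays (0.28), and ranged from -2.38 to 0.12 on leaving out 1 heart, with 0.12 without RORasg/sg replicate 4. The median of the 7 (0.18) moved to -0.0040 after quantile normalization, -0.39 without scaling, -0.60 with the mean of probes, -0.33 in the brighter arrays and -0.46 for the dimmer. The count of genes passing (1) was 2 after quantile normalization, 3 without scaling, 9 with the replicate block, 15138 with array weights and 1303 in the brighter arrays. It was 0 with normexp, with probes above background on all 9 arrays, with the mean of probes, with slide as a fixed block, within slide 1, within slide 2 and in the dimmer arrays. Leaving out 1 heart gave 0 to 10399, the latter without RORasg/sg replicate 1 (7923 higher, 2476 lower). The count of probes passing (1) was 4 without scaling, 1460 in the brighter arrays, 0 with probes above background on all 9 arrays, within slide 1, within slide 2 and in the dimmer arrays, and 0 to 12736 on leaving out 1 heart. Deviations of same-numbered hearts had correlations of 0.046, -0.0064, -0.33 and 0.39 for replicates 1 to 4, and 2 of 8 hearts correlated best with their own number. These few values show no pairing by number but cannot exclude one, and the hearts were treated as unpaired. Apart from alternatives that use fewer hearts or another probe, the cause was not tested. Dim probes limit what can be read: where a probe is near background on an array, as Dhcr7 in RORasg/sg heart 4, its log2 value is imprecise.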
